A study of Mus musculus with 2 samples.

Results

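Corticotropin-releasing hormone (CRH) and its partners were represented by 5 genes among the 32285 genes of each deposited matrix, chosen by symbol alone: Crh, the peptide precursor, Ucn, the precursor of the related peptide urocortin, the receptor genes Crhr1 and Crhr2, and Crhbp, which encodes a secreted protein that binds CRH. The data came from the mouse locus coeruleus, the main noradrenergic nucleus of the brainstem. The 2 libraries, called library 1 and library 2 here, were independent samples of 1 group, with no treatment and no control group: C57BL/6N wild-type animals, males and females, at an age of 3 to 4 weeks. The labels give each library its own batch number, do not give the number of mice pooled in each, and describe both papain-dissociated, methanol-fixed cells and frozen, sorted nuclei without saying which library used which, so library, batch and protocol cannot be told apart. The p-values rest on counting error and on the spread between these libraries, pooled over genes, which may be technical. They do not measure the spread between cells, and a single gene can differ between libraries by more than its SE.

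CRH is released by neurons and acts through class B G protein-coupled receptors that raise cyclic AMP. In the hypothalamus it starts the hormonal stress response. In the pontine tegmentum, next to the locus coeruleus, Barrington's nucleus holds glutamatergic neurons, many of which make CRH and project to the spinal cord, where they take part in bladder control. CRH also acts on noradrenergic neurons of the locus coeruleus, and in rodents Crhr1 is known from cerebellar granule neurons.

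Crh and Ucn encode related peptides, and the ends of their coding sequences are shown because the mature peptides lie there. They are the last 132 coding bases of each gene up to the stop codon (GENCODE transcripts on GRCm38), 5′ to 3′, and capitals mark the bases that the pair shares when the sequences are aligned from the stop codon without gaps.
Crh: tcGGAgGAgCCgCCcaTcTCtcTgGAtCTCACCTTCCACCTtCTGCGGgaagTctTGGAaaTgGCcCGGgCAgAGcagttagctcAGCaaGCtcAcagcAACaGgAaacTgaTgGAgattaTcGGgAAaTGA
Ucn: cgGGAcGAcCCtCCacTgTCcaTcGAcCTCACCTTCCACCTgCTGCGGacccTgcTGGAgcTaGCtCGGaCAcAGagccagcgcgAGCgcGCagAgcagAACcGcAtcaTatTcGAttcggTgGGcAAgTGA
Over this stretch 73 of 132 bases, or 55.3%, were identical, and the full coding sequences were 564 bases in Crh and 369 bases in Ucn. On GRCm38, Crh lies at chr3:19693401-19695396 and Ucn at chr5:31138063-31138829, both on the minus strand. Crhr1 spans chr11:104132855-104175523 on the plus strand, Crhr2 chr6:55090049-55133016 on the minus strand and Crhbp chr13:95431371-95444924 on the minus strand. These are whole-gene intervals, exons and introns together.

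The libraries differed in depth. Library 1 held 304 cell barcodes with a median of 11010 unique molecular identifiers (UMIs, each standing for 1 captured RNA molecule), and library 2 held 2796 barcodes with a median of 1517. No barcode occurred in both. After filtering, 2973 cells remained, of which 1325 were neurons, 198 in library 1 and 1127 in library 2. Clustering on marker genes that hold none of the 5 genes gave excitatory-like neurons (99 and 329 cells in libraries 1 and 2), inhibitory-like neurons (29 and 188), noradrenergic-like neurons (12 and 74), mesencephalic trigeminal-like neurons (11 and 38), cerebellar granule-like neurons (25 and 36) and neurons of clusters without a name (22 and 462), beside glial, ependymal and vascular classes. The rule that set excitatory-like and inhibitory-like names was chosen with the data in view.

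Crh was a gene of few cells. It had 84 UMIs in 7 cells of library 1 and 100 UMIs in 25 cells of library 2. A cell of a neuronal cluster with 2 or more Crh UMIs is called a Crh neuron here; there were 5 in library 1 and 13 in library 2, together 18, which is 1.36% of the neurons. These 18 cells held 170 of the 184 Crh UMIs, or 92.4%. Beyond them, 12 neurons and 2 glial cells had a single Crh UMI, and no non-neuronal cell had more.

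Most of the 18 Crh neurons carried the glutamate transporter gene Slc17a6. Of them 14 lay in excitatory-like clusters, 2 in inhibitory-like clusters and 2 in the noradrenergic-like cluster. A UMI of Slc17a6, whose product loads glutamate into vesicles, was present in 14 of 18, a UMI of Gad1 or Gad2, the GABA-synthesizing enzymes, in 1, and both kinds in 0. The noradrenaline genes Dbh and Slc6a2 were found together in 2. Esr1, the estrogen receptor gene that with Crh and Slc17a6 made up the list of Barrington's nucleus genes, was detected in 4 of 18. That is 22.2% of Crh neurons, against 8.88% of the other neurons, which were shallower. The transcription factor gene Lmx1b was detected in 2 and Lmx1a in 0. Since 3 genes are too few to name a cell type, the cells are called Crh neurons and not by a nucleus.

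The cells differed widely in how much Crh they held, as the plot of Crh UMIs against total UMIs shows. In library 1 the Crh neurons had 65, 7, 6, 2 and 2 Crh UMIs. The cell with 65 was also the deepest, with 75825 UMIs in all, so that its Crh level was 857 CPM (counts per 1e6 UMIs), and it alone held 79.3% of the Crh UMIs of the 5 cells. In library 2 the counts were 26, 14, 9, 8, 5, 5, 5, 3, 3, 3, 3, 2 and 2. The highest, 26 Crh UMIs of 42339, belonged to a noradrenergic-like cell that also had 56 Dbh and 46 Slc6a2 UMIs and no Slc17a6 UMI. The cell with 8 Crh UMIs had only 1671 UMIs in all and belonged to an inhibitory-like cluster found in library 2 alone, led by Sox6, Lama1 and Crh. Crh stood among the leading genes only through this cell, which held all 8 Crh UMIs of the cluster's 58 cells. The median Crh level per Crh neuron was 126 CPM in library 1 and 614 CPM in library 2. Since a Crh neuron needed 2 Crh UMIs, the lowest level a cell could show depended on its depth, so these medians are not compared.

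**Figure D1:**
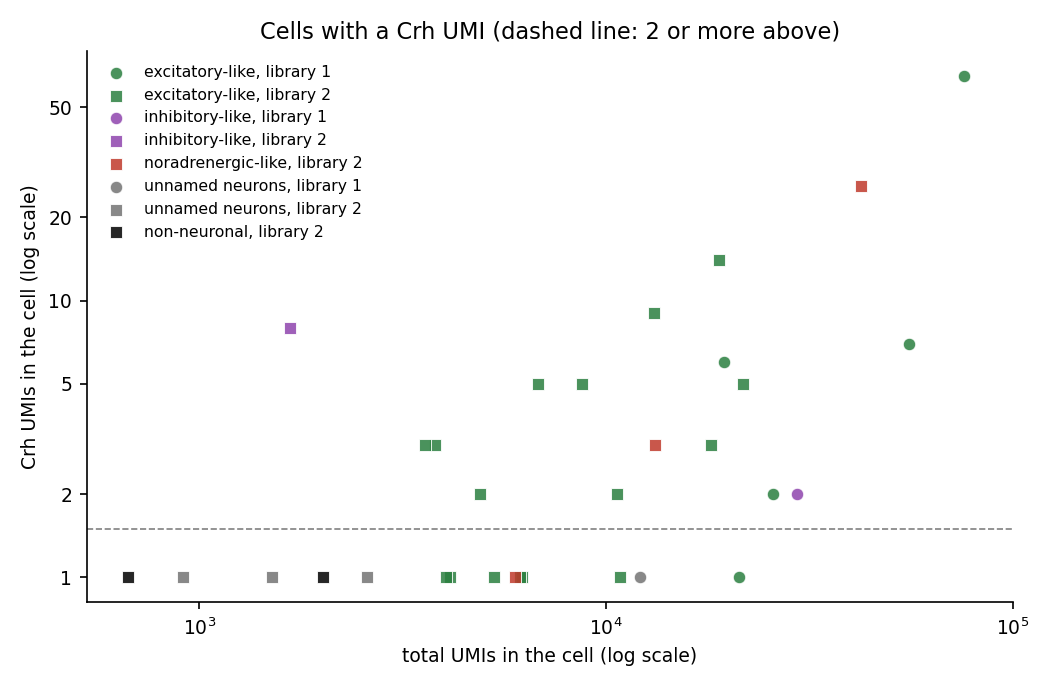
Crh UMIs (vertical axis, log scale) against total UMIs (horizontal axis, log scale) for each of the 32 cells with a Crh UMI; colour gives the cell class and shape the library. The cells above the dashed line, with 2 or more Crh UMIs, are the 18 Crh neurons, and the highest has 65.

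Crh neurons were deeper than the rest, their median cell holding 29571 UMIs in library 1 and 10678 in library 2, against 14062 and 2438 UMIs for the other neurons. When each cell was thinned to 1000 UMIs, a Crh UMI was left in 0 of 198 neurons of library 1 and 5 of 1008 neurons of library 2 (0.496%), against 7 of 198 and 23 of 1127 before thinning. In oligodendrocyte-like cells, taken here as cells that should lack Crh, 0 of 40 and 1 of 720 cells had a UMI before thinning and 0 of 40 and 0 of 576 after it; their median depths were 9832.5 and 1441 UMIs. At 1000 UMIs a cell the depth was too low to compare these shares.

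Across classes, summed Crh was highest in excitatory-like neurons in both libraries: 41.7 CPM in library 1 (81 UMIs, exact Poisson 95% interval 33.1 to 51.9) and 44.1 CPM in library 2 (57 UMIs, 33.4 to 57.1). In library 2 the noradrenergic-like class was next at 42.3 CPM, with overlapping intervals. Without the cell of 65 UMIs and, in library 2, the cell of 14, the levels were 8.58 and 33.8 CPM. Against all other neurons, with 1.14 and 13.8 CPM, Crh was higher by 2.66 ± 0.27 log2 units (SE, edgeR adjusted p = 2.6e-20). In library 1 and library 2 taken alone the difference was 4.46 and 1.64, a gap wider than the SE. That p-value therefore does not reflect how far the libraries or the cells differed. Of the 11586 genes tested, 7.79% were higher in that comparison, and DESeq2 did not call Crh there (3.38, adjusted p = 0.26). Excitatory-like clusters were not uniform. The cluster led by Abi3bp, Tac1 and Crh held 55.1 and 52.7 CPM in libraries 1 and 2. Crh is one of its leading genes because of that level, and in library 1 a single cell held 65 of the cluster's 81 Crh UMIs. One led by Col11a1 and Foxp2 held 0 and 41.4 CPM, and another, led by Bnc2, Abi3bp and Ebf2, held none in either library.

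Noradrenergic-like neurons differed between the libraries. Their Crh was at 0 in library 1, where no UMI was found in 12 cells of great depth and a count of 3 would have been 3.04 CPM, and at 42.3 CPM in library 2 (30 UMIs in 3 of 74 cells). A single cell held 26 of the 30, and 6.00 CPM (4 UMIs) remained without it. The difference from the other neurons, with 23.5 CPM in library 1 and 19.1 CPM in library 2, did not pass the test (-0.35 ± 0.84 log2 units, adjusted p = 0.79). Inhibitory-like neurons had 4.08 and 13.8 CPM, against 20.1 and 24.4 CPM in the other neurons, which did not pass either (-1.22 ± 0.45, adjusted p = 0.11; 7.37% of 11409 genes passed there). Each of these values came from 1 cell, with 2 UMIs in library 1 and 8 UMIs in library 2, and the cell of library 2 had no Gad1, Gad2 or Slc32a1 UMI. Granule-like neurons had no Crh UMI in either library, where the exact Poisson 95% upper limit was 25.8 CPM in library 1 and 103 CPM in library 2. Mesencephalic trigeminal-like neurons, the proprioceptors of the jaw muscles, also had none, against 182 UMIs in the other neurons, so that Crh was at least 10.8-fold lower there (adjusted p = 3.0e-10; floor of 3 counts over both libraries); 18.5% of 11619 genes were lower in that class, and DESeq2 did not call it (adjusted p = 0.37).

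**Figure D2:**
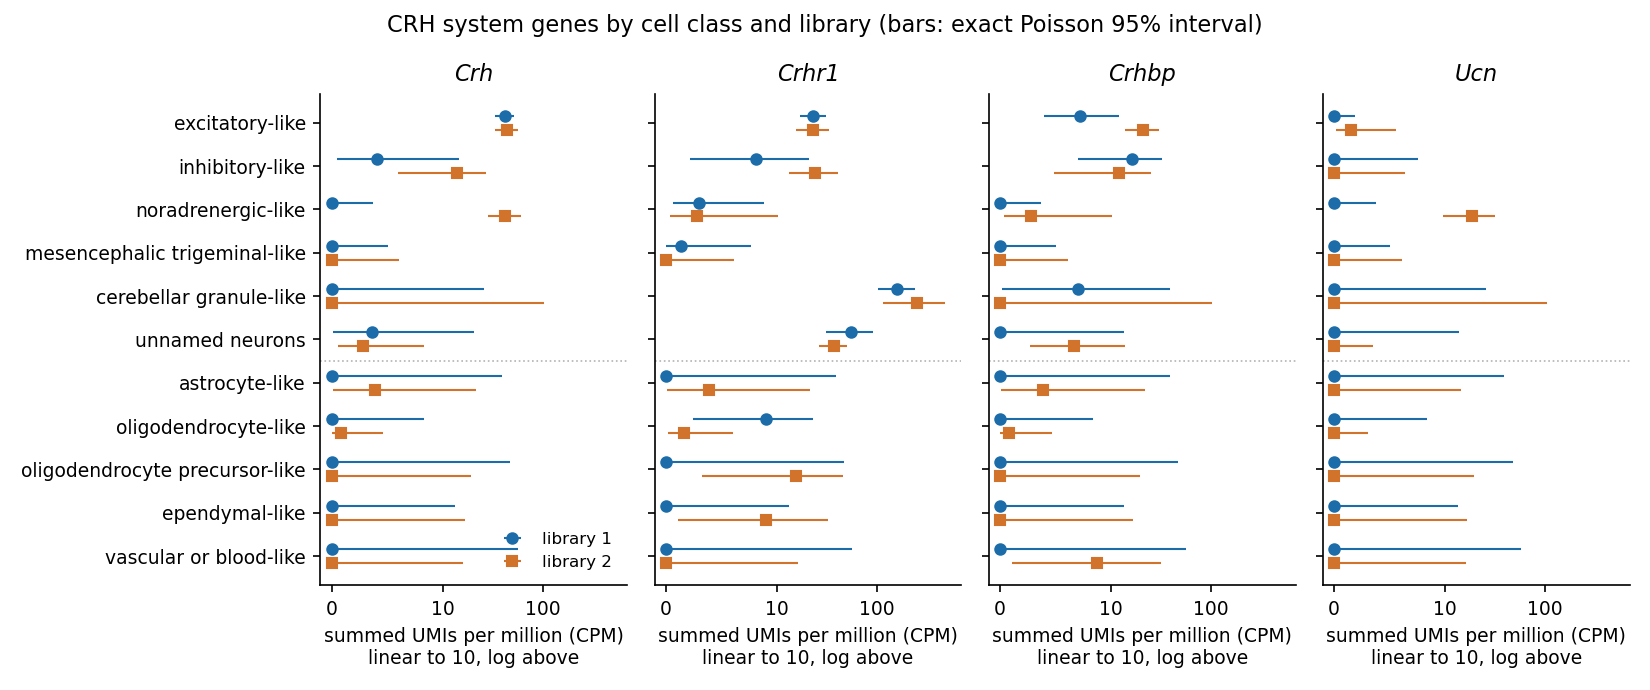
Summed level (CPM, horizontal axes, linear to 10 and log above) of Crh, Crhr1, Crhbp and Ucn in each cell class (rows; neurons above the dotted line), with points for the 2 libraries and bars for exact Poisson 95% intervals, which cover counting error only. Crh led in excitatory-like neurons at 41.7 and 44.1 CPM, Crhr1 in granule-like neurons at 161 and 251 CPM, and Ucn reached 18.3 CPM in noradrenergic-like neurons of library 2 and was at 0 in library 1.

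Which other genes the Crh neurons held was asked by summing their UMIs in each library and comparing the sums with those of all other neurons. Of 11699 genes tested, 23 were higher and 83 lower in Crh neurons at an adjusted p under 0.05 (0.906% in all, 0.197% higher and 0.709% lower), and every one had the same sign in both libraries taken alone. The calls came from these same sums, so the shared sign is no separate support. Prdm6, C1ql4, Hotairm1 and Met rose most. The genes that fell most had no UMI at all in the 18 cells.

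Prdm6, which encodes a PR-domain transcription regulator, had 92.1 and 29.8 CPM in Crh neurons of libraries 1 and 2, against 1.38 and 1.22 CPM in other neurons (5.35 ± 0.65 log2 units, SE; adjusted p = 0.0029). C1ql4, a secreted synaptic protein of the C1q family, had 53.3 and 77.6 CPM against 1.61 and 1.71 CPM (5.11 ± 0.59, adjusted p = 0.0029). Npas1, a basic helix-loop-helix transcription factor gene, had 82.4 and 143 CPM against 5.51 and 7.80 CPM (3.92 ± 0.44, adjusted p = 0.0029). In all 3 genes both libraries of Crh neurons lay far above both sums of other neurons. C1ql4 and Npas1 were each detected in 10 of 18 Crh neurons, and in 0.842% and 2.68% of other neurons. Prdm6 was detected in only 6 of 18, against 0.689% of other neurons, and 1 cell held 41.7% of its UMIs.

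Met, the receptor for hepatocyte growth factor, had 92.1 and 41.8 CPM in Crh neurons against 1.15 and 2.68 CPM in other neurons (5.00 ± 0.68, adjusted p = 0.0049), but 1 cell held 65.4% of its UMIs. Hotairm1, a long noncoding RNA of the HoxA cluster, rose by 5.07 ± 0.93 and was detected in 7 of 18 cells. The retinoic acid-binding protein gene Crabp1 rose by 3.56 ± 0.67, the actin-associated Palld by 2.56 ± 0.48 and Pappa, a protease of insulin-like growth factor-binding proteins, by 2.37 ± 0.39. The homeobox genes Irx1 and Onecut3 rose by 3.38 ± 0.70 and 2.72 ± 0.54. These genes were each found in 4 to 9 of the 18 cells, so that many Crh neurons had no UMI of any given one, as the grid of UMIs per cell shows. Without the cell of most Crh UMIs, Irx1 (2.83), Onecut3 (2.30) and Pappa (1.80) no longer passed and Hotairm1 was too low to be tested. For the genes after Met the edgeR adjusted p ran from 0.016 (Pappa) to 0.046 (Irx1). Hotairm1, Crabp1 and Irx1 had only 10, 11 and 10 UMIs in the Crh neurons. Of the 20 largest rises and falls, 8 still passed with RLE scaling, Prdm6, C1ql4, Met and Npas1 among them.

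**Figure D3:**
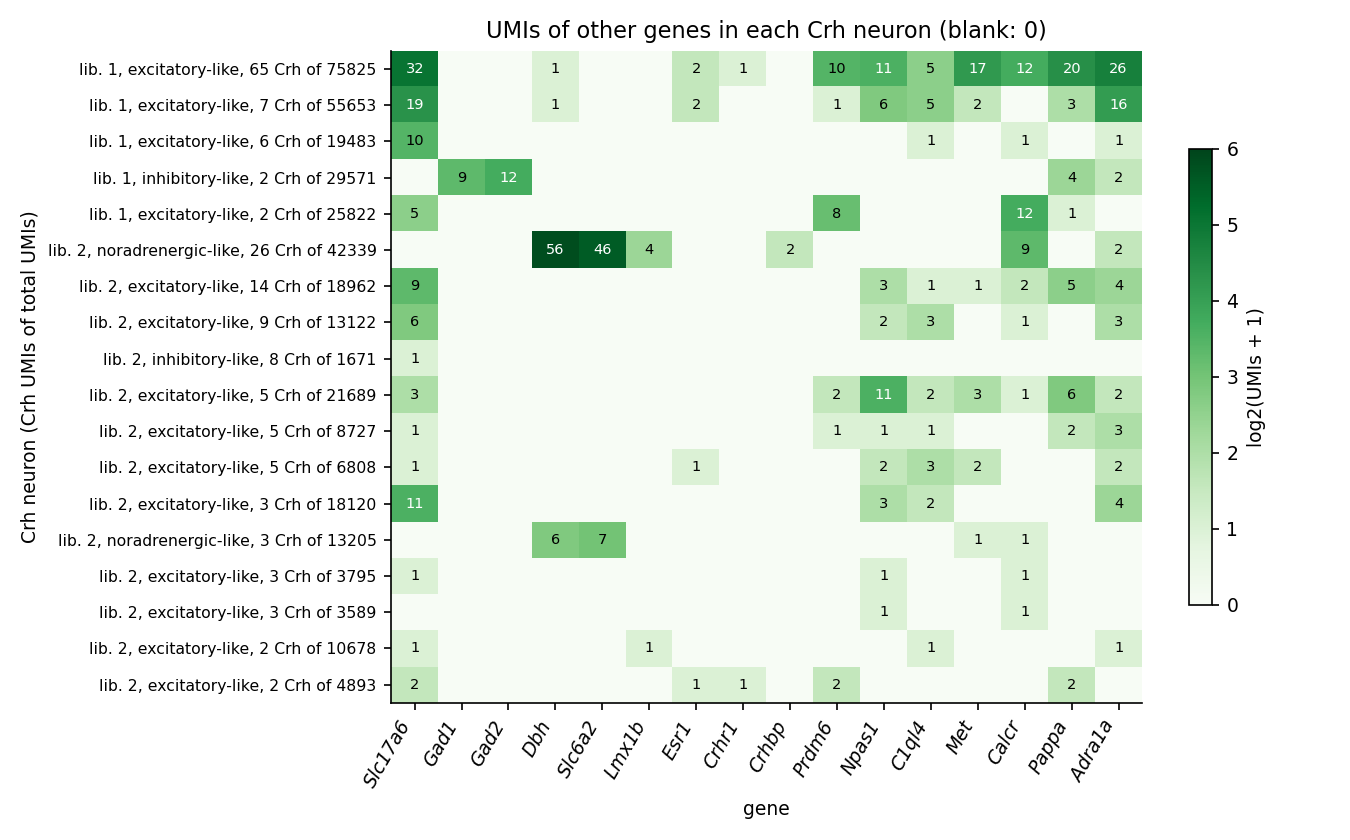
UMIs of 16 genes (columns) in each of the 18 Crh neurons (rows, labelled by library, class and Crh UMIs of total UMIs); shade is log2(UMIs + 1) and blank cells are 0. Slc17a6 fills 14 rows, Gad1 and Gad2 fill 1 row and Dbh with Slc6a2 fills the 2 noradrenergic-like rows, and Npas1 and C1ql4 fill 10 rows each.

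All 10 of the genes with the largest falls had 0 UMIs in Crh neurons, so only a lower bound of the difference can be given, against a floor of 3 counts over both libraries. Tafa1, a secreted chemokine-like protein gene, had 280 and 345 CPM in the other neurons and was detected in 37.1% of them, and was at least 38.9-fold lower in Crh neurons. Ndst4, an enzyme of heparan sulfate synthesis, was at least 15.1-fold lower. The transcription factor genes Bnc2, Runx1, Foxp2, Pax5 and Nfix were at least 10.3, 8.77, 6.82, 6.46 and 6.34-fold lower, and Ppp1r1c, Synm and Serpine2 at least 6.82, 6.53 and 6.25-fold lower. Piezo2, the mechanically gated channel of proprioceptors, was at least 29.6-fold lower. DESeq2 called none of the 10 largest falls (adjusted p of 0.061 or more), and RLE scaling did not call Ppp1r1c, Foxp2, Synm, Pax5, Nfix or Serpine2. Runx1, Ppp1r1c and Piezo2 are among the leading genes of the trigeminal-like cluster: without noradrenergic-like and trigeminal-like cells Runx1 and Ppp1r1c were too low to be tested, and Synm (adjusted p = 0.28) and Piezo2 (0.19) did not pass. The bars of detection by gene show these falls beside the rises.

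**Figure D4:**
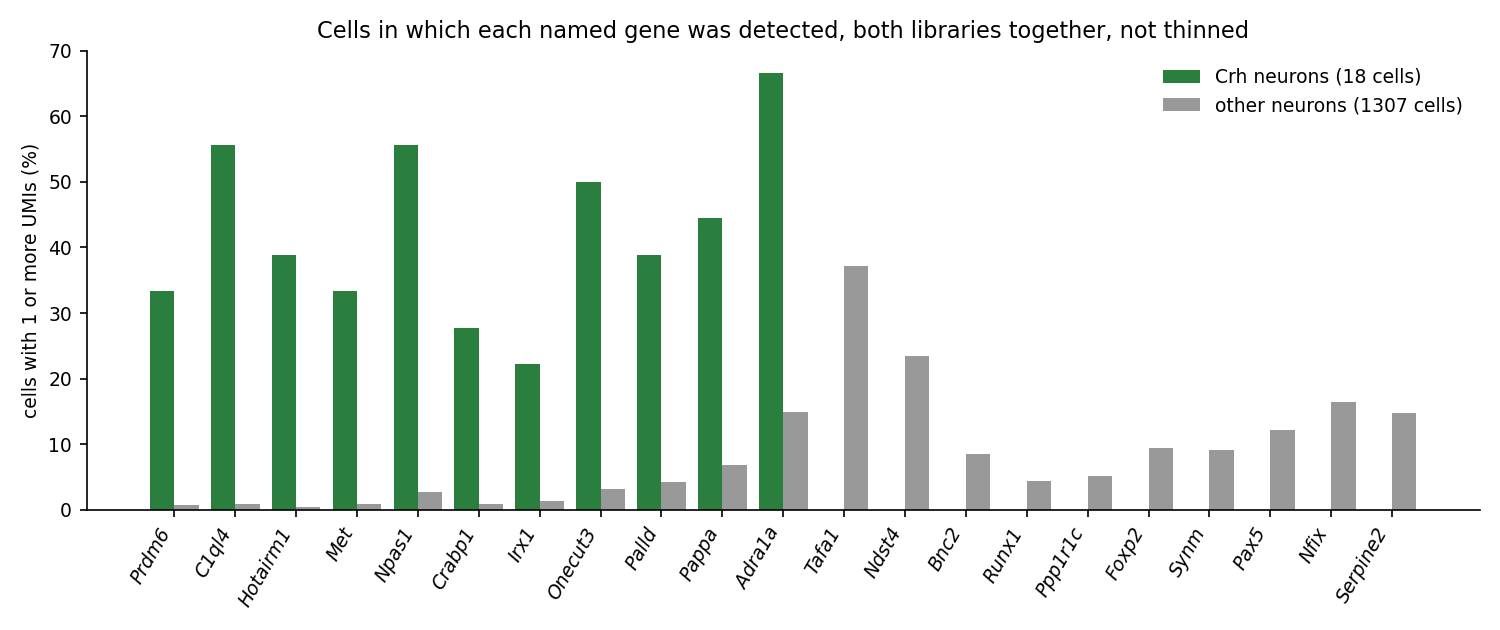
Share of cells with 1 or more UMIs (%, vertical axis) for the 10 largest rises, Adra1a and the 10 largest falls, in the Crh neurons (left bar of each pair) and other neurons (right bar), libraries together and not thinned. Crh neurons reach 66.7% for Adra1a and 55.6% for C1ql4 and Npas1, and have 0 cells for the falls, of which Tafa1 was found in 37.1% of other neurons.

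Of the gene lists, hindbrain transcription factors held the most genes that passed. Of 70 on the list 53 could be tested: 3 rose (Prdm6, Onecut3 and Irx1), 10 fell and 40 did not pass, with a median of -1.15 log2 units beside -0.07 over all genes tested. Ebf2 was among those that fell, with 9.69 and 0 CPM in Crh neurons against 146 and 235 CPM in other neurons (-5.22 ± 0.62, adjusted p = 0.0029). Etv1 fell by 5.72 ± 0.70, with 1 UMI in the 18 cells against 1124 UMIs in the others. Etv1 is also a marker of granule and trigeminal neurons, and it no longer passed with noradrenergic-like and trigeminal-like cells left out (adjusted p = 0.11).

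Of 5 adrenergic receptor genes tested, 1 rose and 4 did not pass (median 1.32). Adra1a, the alpha-1A adrenoceptor, had 218 and 125 CPM in Crh neurons, against 34.2 and 47.1 CPM in other neurons (1.98 ± 0.36, adjusted p = 0.029), and was detected in 12 of 18 cells against 14.8% of other neurons. The levels of both libraries stood clear of the other neurons, but the adjusted p was 0.085 with RLE scaling and 0.055 with DESeq2. It was 0.052 against other neurons at least as deep as the shallowest Crh neuron of their library, a lower cut that does not equalize depth. With every cell thinned to at most 2000 UMIs the estimate was -0.12. Of 21 neuropeptide receptor genes tested of 61, 0 rose and 1 fell, the parathyroid hormone receptor gene Pth1r (-2.91 ± 0.55, adjusted p = 0.030; median of the list -0.06). Of 12 steroid and stress receptor genes, 0 rose and 1 fell, the orphan receptor gene Rora, with 286 and 209 CPM against 730 and 828 CPM (-1.77 ± 0.28, adjusted p = 0.011; median -0.32). With noradrenergic-like and trigeminal-like cells left out Pth1r did not pass (-0.75, adjusted p = 0.69). Rora did not pass with RLE scaling (0.053) or against the other neurons kept by that depth cut (0.19). Of 37 ion channel genes 0 rose and 2 fell, Piezo2 and Trpc5 (-4.09 ± 0.70; median -0.33).

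Among fast transmitter genes, 7 of 8 were tested and 1 fell, Slc17a7, the vesicular glutamate transporter of granule and cortical neurons (-4.42 ± 0.86, adjusted p = 0.036; median of the list -1.01). That call was lost with RLE scaling (adjusted p = 0.094), with DESeq2 (0.34) and with 3 or more Crh UMIs (0.072). It was also lost against other neurons at least as deep as the shallowest Crh neuron (0.052) and without noradrenergic-like and trigeminal-like cells (-2.68, 0.29). Slc17a6 had 320 and 215 CPM in Crh neurons against 128 and 101 CPM in other neurons, which did not pass (1.09 ± 0.26, adjusted p = 0.087). It did pass with no low-count filter (adjusted p = 0.033), with 1 or more Crh UMIs (0.042) and with noradrenergic-like and trigeminal-like cells left out (0.028). It also passed with excitatory-like Crh neurons alone (1.45, 2.8e-07). Slc17a6 was among the marker genes that set those clusters, so this last value is no separate support. Gad1 and Gad2 (-1.01 ± 0.70 and -1.80 ± 0.62) did not pass: all their UMIs came from 1 Crh neuron of library 1, and library 2 had 0 UMIs of either in 13 cells. Slc32a1 (-0.48 ± 0.82) and Slc6a5 (0 UMIs against 79) did not pass. Esr1 had 19.4 and 11.9 CPM against 27.1 and 26.6 CPM (-0.87 ± 0.63, adjusted p = 0.72).

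Of the other CRH system genes, Crhr1 was found in 2 of 18 Crh neurons (11.1%), against 10.3% of other neurons, and Crhbp in 1 of 18 (5.56%), against 2.22%. By summed level, Crhr1 had 1 UMI in each library, 4.85 and 5.97 CPM, against 20.7 and 22.7 CPM in other neurons; both sums of Crh neurons were below both of the others, but the difference did not pass (-2.12 ± 0.87, adjusted p = 0.43). Crhbp had 0 and 2 UMIs, against 23 and 41, and did not pass (-0.62 ± 1.11, adjusted p = 0.90). The 2 Crhbp UMIs were in the noradrenergic-like cell with 26 Crh UMIs. Crhr2 and Ucn had no UMI in any Crh neuron. Among the 36 genes of receptor coupling and cyclic AMP signalling, 0 passed in either direction (median -0.24).

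In the other lists no gene passed: these were 15 neuropeptide precursors tested of 58 (median -0.17), 9 monoamine and acetylcholine genes (-0.44), 19 peptide processing and granin genes (-0.16), 42 glutamate and GABA receptor genes (-0.04), 14 immediate early and dissociation genes (-0.24) and 7 nuclear RNAs (-0.25). Described without a test, 17 of the 19 processing and granin genes were found in 5 or more Crh neurons. Scg2, a granin, had a UMI in 18 of 18 against 50.5% of other neurons, and Cadps, which primes dense-core vesicles, in 18 of 18 against 77.7%, whereas Cadps2 was found in 3 of 18 (16.7%) against 19.2%. These shares were not thinned and Crh neurons were deeper than other neurons, so no enrichment is read from them. Of the 58 precursors only Adcyap1, the PACAP precursor (10 of 18 cells), and Nucb2, the nesfatin precursor (9 of 18), were detected in 5 or more. Of the 61 peptide receptor genes 9 were found in 5 or more cells, among them Calcr (10), Adcyap1r1 (9), Sstr2 (9), Hcrtr1 (8) and Hcrtr2 (7), and among steroid receptors Nr3c2, the mineralocorticoid receptor, was found in 16 and Nr3c1, the glucocorticoid receptor, in 5.

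How many genes passed depended on the cells and the tool. Against other neurons at least as deep as the shallowest Crh neuron 65 passed, 305 with noradrenergic-like and trigeminal-like cells left out and 35 after thinning. The cell of 65 Crh UMIs supplied 36.7% of all UMIs of library 1's Crh neurons, and without it 180 genes passed rather than 106; with Crh neurons of excitatory-like clusters alone 552 passed, while DESeq2 called 38 and RLE scaling 37. Prdm6, C1ql4, Met and Npas1 passed under each of these 4 alternatives. Noradrenergic markers summed to 121 and 2428 CPM in Crh neurons against 2140 and 1166 CPM in other neurons, with 3 and 8 of 9 detected (Slc6a2, Slc18a2 and Phox2a were among those at 0 in library 1), and oligodendrocyte markers to 107 and 137 CPM against 237 and 320 CPM, with 2 and 4 of 8 detected and Mog, Mobp, Cldn11 and Opalin at 0 in both. Leaving out noradrenergic-like cells gave the counts above, and the part of oligodendrocyte RNA was not tested.

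A closer comparison set Crh cells against other cells of the same excitatory-like clusters. Since library 1 had only 4 such cells with 2 or more Crh UMIs, 1 or more UMIs counted, giving 5 and 16 cells against 94 and 313. The Crh cells held 197992 and 147040 UMIs in libraries 1 and 2, against 1743623 and 1145877, so they were deeper per cell. Shares of cells with a UMI were not thinned in this comparison. Of 8057 genes tested, 198 were higher and 316 lower (6.38% in all, 2.46% higher and 3.92% lower), all with the same sign in both libraries. Here too the sign came from the sums that gave the calls. The Crh cells are largely those of the first comparison, so the values stand side by side with it and are no independent sample.

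The largest rises were Met (5.55 ± 0.62 log2 units, SE), Prdm6 (5.24 ± 0.55), C1ql4 (4.80 ± 0.54), Hotairm1 (4.73 ± 0.77) and Mctp2, a calcium-binding membrane protein gene (4.23 ± 0.66), of which the largest adjusted p was 0.00055. Mctp2 was detected in only 3 of 21 cells, 1 of which held 61.5% of its UMIs, whereas C1ql4 was in 12 of 21. The largest falls again had 0 UMIs in the Crh cells. Tfap2b was at least 10.7-fold lower, Pax5 at least 10.1-fold, Lmx1a at least 9.99-fold, and Bnc2 and Abi3bp at least 7.48-fold.

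Lmx1a, a LIM homeobox transcription factor gene of the hindbrain roof plate and its neurons, was found in 20.4% of the other excitatory-like cells and in 0 of 21 Crh cells. Of 40 transcription factor genes tested, 5 rose (Prdm6, Onecut3, Meis2, Nr4a2 and Irx2), 19 fell, including Lmx1b, and 16 did not pass (median -1.17 beside -0.02 over all genes tested). Ebf2 had 10.1 and 0 CPM in Crh cells against 278 and 326 CPM (-5.76 ± 0.50), and Pbx3 fell by 3.58 ± 0.37.

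Of 6 peptide precursor genes tested, 0 rose and 4 fell (median -2.57). Penk, the enkephalin precursor, had 0 and 6.80 CPM in Crh cells, against 99.2 and 55.9 CPM in the other excitatory-like cells (-4.83 ± 0.79, adjusted p = 0.0006). Nps, the precursor of neuropeptide S, had 0 UMIs against 127 and was at least 5.05-fold lower, and Tac1, the substance P precursor, had 25.3 and 0 CPM against 88.9 and 49.7 CPM (-2.45 ± 0.57), all of it in 1 cell. Sst also fell.

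Some receptors rose. Calcr, the calcitonin receptor, had 141 and 74.8 CPM in Crh cells against 13.8 and 14.8 CPM (2.83 ± 0.42, adjusted p = 0.0002). It was detected in 12 of 21 cells against 3.44% of the others, which were shallower. Of its 39 UMIs in Crh cells, 1 cell of library 1 held 12, and another cell of library 1 had as many. The orexin receptor gene Hcrtr2 had 45.5 and 116 CPM against 24.7 and 21.8 CPM (1.56 ± 0.45, adjusted p = 0.041), and the natriuretic peptide clearance receptor gene Npr3 fell by 3.44 ± 0.96, so that 2 of 14 receptor genes rose, 1 fell and 11 did not pass (median 0.24). Of 2 adrenergic receptor genes tested, Adra1a rose, with 222 and 170 CPM against 51.0 and 58.5 CPM (1.75 ± 0.28, adjusted p = 0.0004), and the other did not pass. Calcr and Adra1a were each above both sums of the other cells in both libraries.

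Signalling and channel lists split in both directions. Of 35 cyclic AMP genes 5 rose, among them Gnas, the stimulatory G protein subunit that CRH receptors couple to (0.86 ± 0.15, adjusted p = 0.0012), and the protein kinase A subunit Prkacb (0.80 ± 0.18), and 3 fell, including the phosphodiesterase Pde4d (-0.64 ± 0.15; median -0.20). Of 39 glutamate and GABA receptor genes 4 rose and 7 fell (median -0.21), the metabotropic receptor gene Grm5 most clearly, with 141 and 156 CPM against 617 and 622 CPM (-2.18 ± 0.22), followed by Grm7 (-1.29 ± 0.24) and Grm8 (-1.11 ± 0.21). Of 34 ion channel genes 1 rose and 9 fell (median -0.31), led by the potassium channel genes Kcnd2 (-1.11 ± 0.18) and Kcnq5 (-1.21 ± 0.21) and by Trpc5 (-3.04 ± 0.57).

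In the remaining lists few genes passed. Of 12 steroid and stress receptor genes Fkbp5, a glucocorticoid-induced chaperone gene, rose (1.37 ± 0.41, adjusted p = 0.0497), and Rora (-1.56 ± 0.21) and the thyroid hormone receptor gene Thrb (-1.90 ± 0.43) fell. Of 19 processing genes Syt4 (0.97 ± 0.18) and Scg2 (0.75 ± 0.17) rose and Cadps2 fell (-2.16 ± 0.50). Ddc, the decarboxylase of monoamine synthesis, rose with 111 and 88.4 CPM against 22.4 and 20.9 CPM (2.09 ± 0.39, adjusted p = 0.0016), alone among 4 monoamine genes. Gad2 had 0 UMIs against 114 and was at least 4.54-fold lower, whereas Slc17a6 (0.57 ± 0.20, adjusted p = 0.11) did not pass. None of 10 immediate early genes passed, and of 7 nuclear RNAs Xist, which is made by the inactive X chromosome of female cells, fell (-2.53 ± 0.51), with a UMI in 2 of 21 Crh cells against 20.9% of the others; the makeup by sex was not tested.

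Within this class Crhr1 had 15.2 and 6.80 CPM in Crh cells, against 24.1 and 25.3 CPM in the other cells (-1.20 ± 0.69, adjusted p = 0.38). Crhbp was too low to be tested, with 0 UMIs in 21 Crh cells and 14 and 27 UMIs in the others. Esr1 did not pass (-0.72 ± 0.47, adjusted p = 0.46). Without the cell of most Crh UMIs 270 genes passed rather than 514, and Prkacb (0.72), Pde4d (-0.75), Hcrtr2 (1.44), Fkbp5 (1.39), Syt4 (0.79), Cadps2 (-1.82) and Scg2 (0.61) no longer did; Met and Hotairm1 were then too low to be tested. DESeq2 called 80 genes. Of the 10 largest rises and falls of this comparison 1 had an adjusted p with DESeq2 and passed, and the others had none and so no call. Of the further genes named above DESeq2 did not call Prkacb, Pde4d, Ddc, Hcrtr2, Thrb, Fkbp5, Syt4, Scg2, Grm7, Grm8, Trpc5 or Xist.

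**Figure D5:**
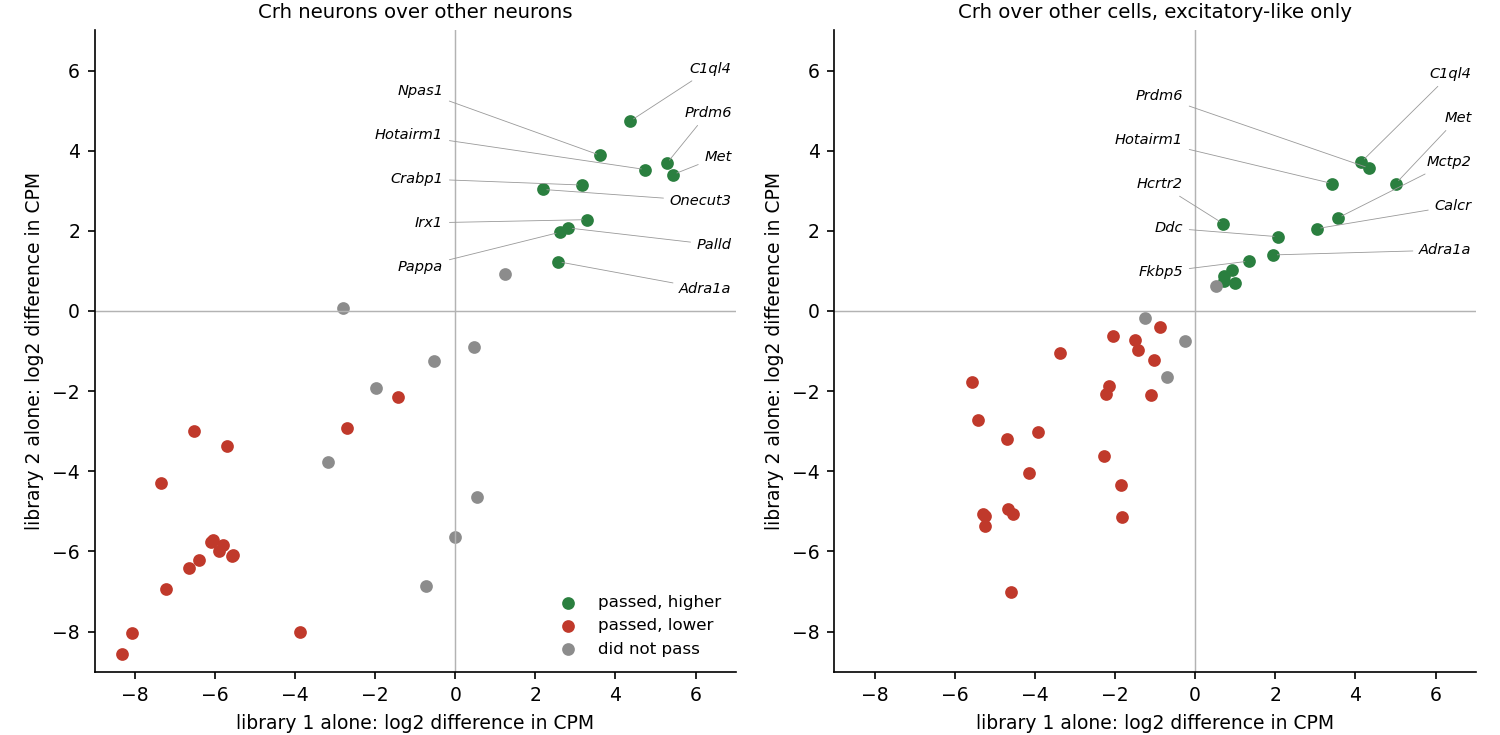
Log2 difference in CPM of the named genes in library 1 alone (horizontal axis) against library 2 alone (vertical axis), for Crh neurons over other neurons (left) and Crh cells over other cells of excitatory-like clusters (right); green passed as higher, red as lower, grey did not pass. Every gene that passed has the same sign on both axes, which the rule for the largest changes required. The axes draw on the same sums as the calls. C1ql4, Prdm6 and Met lie far out in both panels.

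The receptor gene Crhr1 was found in far more cells than Crh. It had a UMI in 57 of 198 neurons of library 1 (28.8%) and 80 of 1127 neurons of library 2 (7.10%), and at 1000 UMIs a cell the shares were close, 5 of 198 (2.53%) and 25 of 1008 (2.48%). In oligodendrocyte-like cells 1 of 40 and 1 of 576 had a UMI at that depth. Against non-neuronal cells, neurons held more Crhr1, with 19.9 and 22.0 CPM against 4.15 and 4.61 CPM (2.23 ± 0.38 log2 units, adjusted p = 0.0013). Crh (18.4 and 23.0 CPM against 0 and 0.922 CPM; 5.00 ± 0.62, adjusted p = 0.0002) and Crhbp (5.04 and 10.1 CPM against 0 and 1.84 CPM; 2.74 ± 0.71, adjusted p = 0.011) were higher too; in that comparison 25.8% of 13513 genes were higher in neurons. DESeq2 did not call Crhbp there (3.12, adjusted p = 0.12).

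Crhr1 led in cerebellar granule-like neurons, cells of the neighbouring cerebellum. There it had 161 CPM in library 1 (23 UMIs, 95% interval 102 to 241) and 251 CPM in library 2 (9 UMIs, 115 to 477), against 15.4 and 20.1 CPM in the other neurons (3.42 ± 0.56, adjusted p = 1.7e-07); 2.68% of 11194 genes were higher in that class. At 1000 UMIs a cell, 3 of 25 and 1 of 14 granule-like cells had a Crhr1 UMI. Next came the unnamed neurons, at 55.2 and 37.1 CPM, among which a cluster led by Itpr1, Gpc5 and Adarb2 had 109 and 55.1 CPM. Excitatory-like neurons had 23.2 CPM in each library, against 17.6 and 21.5 CPM in the other neurons (0.31 ± 0.26, adjusted p = 0.46), and inhibitory-like neurons had 8.16 and 24.2 CPM, against 21.4 and 21.7 CPM (-0.32 ± 0.39, adjusted p = 0.72). The Poisson intervals of granule-like and unnamed neurons did not overlap in either library, whereas those of unnamed and excitatory-like neurons overlapped in both.

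Among neuron classes, Crhr1 was lowest in noradrenergic-like and trigeminal-like neurons. Noradrenergic-like neurons had 3.04 and 2.82 CPM (3 and 2 UMIs), against 24.6 and 25.8 CPM in the other neurons (-3.12 ± 0.44, adjusted p = 0.0019; 13.6% of 11580 genes were lower), although these cells were deep, with a median of 83596.5 and 7946.5 UMIs. Mesencephalic trigeminal-like neurons had 1.37 and 0 CPM, against 23.5 and 25.6 CPM (-4.93 ± 0.80, adjusted p = 7.9e-09). Both classes lay below the other neurons in both libraries. Of 12 and 74 noradrenergic-like cells, 2 and 2 had any Crhr1 UMI.

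Crhr1 cells were of many kinds. Of the neurons with a Crhr1 UMI, 56.1% in library 1 and 21.3% in library 2 also had Slc17a6, against 56.7% and 23.3% of neurons without one. Gad1 or Gad2 was found in 24.6% and 16.3% against 36.2% and 25.4%. Gabra6, the granule cell GABA receptor subunit, was found in 22.8% and 2.50% against 9.22% and 0.287%, and Fat2, a granule cell cadherin, in 26.3% and 8.75% against 15.6% and 1.53%. In both libraries the granule cell genes were thus more frequent and the GABA enzymes less frequent in Crhr1 cells, with Slc17a6 close; these shares were not tested and not thinned. Crh and Crhr1 were found together in 2 cells of library 1 and 1 cell of library 2.

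Crhbp, which can keep CRH from its receptors, had a UMI in 10 neurons of library 1 and 20 neurons of library 2. Excitatory-like neurons had 7.21 and 20.9 CPM, against 3.43 and 5.38 CPM in the other neurons (1.65 ± 0.44, adjusted p = 0.0020), a call that DESeq2 (1.60, adjusted p = 0.58) did not make. Inhibitory-like neurons had 16.3 and 12.1 CPM, against 3.68 and 9.75 CPM, which did not pass (1.14 ± 0.54, adjusted p = 0.23). The levels of these classes overlapped, so no order between them is given. It was lower in noradrenergic-like neurons, with 0 and 2.82 CPM against 6.43 and 11.5 CPM (-2.85 ± 0.82, adjusted p = 0.037), and in trigeminal-like neurons, where no UMI was found against 66 elsewhere (at least 3.90-fold lower, adjusted p = 0.0004); DESeq2 called neither (adjusted p = 0.29 and 0.12). A few cells held most of it: the highest had 7 UMIs, an inhibitory-like cell of library 1, and 11 UMIs, an excitatory-like cell of library 2.

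Ucn appeared in library 2 alone, with 15 UMIs in 8 neurons. Of these, 7 were noradrenergic-like, and each of the 7 had UMIs of both Dbh and Slc6a2. They held 13 Ucn UMIs, with at most 4 in a cell, which gave the class 18.3 CPM in library 2 (95% interval 9.76 to 31.3), against 0.562 CPM in the other neurons of that library. In library 1 no Ucn UMI was found in 12 noradrenergic-like cells with 987938 UMIs together, where a count of 3 would have been 3.04 CPM, so the libraries differed by more than counting error. The sums were too low for the test across genes. The eighth cell was excitatory-like, with 2 Ucn, 5 Crhbp and 2 Slc17a6 UMIs.

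Crhr2 was close to the limit of detection, with 7 UMIs in 7 neurons and never more than 1 in a cell. In library 1 they were 2 noradrenergic-like cells, 1 excitatory-like cell and 2 cells of an unnamed cluster led by Abi3bp and Eya1, and in library 2 a trigeminal-like cell and a cell of an unnamed cluster. No non-neuronal cell had a UMI. Ucn2 and Ucn3, the precursors of the other urocortins, had none in any cell.

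Genes whose levels ran most like those of Crh over 20 points (10 named classes in each of 2 libraries, 10204 genes, log2(CPM + 10)) were Gm41414 (Pearson r = 0.905), Magel2 (0.891), 2700069I18Rik (0.822), Gm44644 (0.816) and Tacr1 (0.803). For Crhr1 they were Gm2694 (0.969), Sidt1 (0.935), Pkib (0.924), Plch2 (0.923) and Fat2 (0.920). The points share libraries and cells, and the values describe these classes with no test.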

How the data were processed

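Single-cell or single-nucleus 3′ RNA counts came from 2 libraries. The deposited values are counts of UMIs per gene and barcode; Cell Ranger 6.1.2 stands in the file headers, whereas per the submitters' processing notes Cell Ranger 7.0, Seurat, mm10 and GRCm38 were used. Whether introns were counted is not given in the sources used here. The study states 2578 cells; the matrices held 3100 barcodes, and 2973 remained after requiring 300 detected genes and at most 20% mitochondrial UMIs and removing the highest Scrublet scores (0.8% per 1000 barcodes).

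Cells were clustered on marker genes in scanpy 1.11.5 (20 components, 15 neighbours, Leiden resolution 1.0), first into neuronal and other clusters (pan-neuronal genes at 5000 CPM or more), then within each. A class name needed 3 markers at 10 CPM or more and a log2 ratio of 2 over the lower-quartile cluster; neuronal clusters that met no such rule were called excitatory-like or inhibitory-like where one kind of fast transmitter gene summed to at least 2 times the other, and stayed unnamed otherwise. UMIs were summed per library and arm and tested with edgeR 4.0.16 (quasi-likelihood, TMM, low-count filter, library as a block since each library supplied both arms, Benjamini-Hochberg threshold 0.05) in R 4.3.3; DESeq2 1.42.0 was an alternative. SEs were taken from the fold change and its F statistic. The tests were run on simulated sums for the comparison of Crh neurons with other neurons. Of 50 genes each, 36 were recovered at a change of -3 log2 units, 22 at -2, 49 at 2 and 50 at 3, with 3 false calls. The changed genes were drawn only from genes with more UMIs in the sums than most of the largest rises had. Recovery of genes as low as Prdm6, C1ql4, Hotairm1 or Met was therefore not tested. The simulation used 1 fixed dispersion for sums and no single cells, so it does not cover sums in which 1 cell holds many UMIs. CPM relates a gene to all UMIs of the summed cells, so levels of different genes are not compared per length. Levels carry exact Poisson intervals, which cover counting error only.

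Named genes were the members, the 10 largest rises and 10 largest falls (5 and 5 among excitatory-like cells) with the same sign in both libraries and at least 20 CPM, and up to 3 called genes of each list; marker genes and clone-named genes were left out of the largest changes. Adra1a, Piezo2 and the other list genes come from the lists, while genes in detection sentences, Lmx1b, Mctp2's cell counts and the single cells were described after their values were seen. The members and lists were chosen with earlier results of these data known. Some list genes are not reported here. Crh chose the Crh cells and was not tested there. Alternatives were another scaling, filter, tool, Crh threshold, depth, resolution and cell filter, and each library alone.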

Additional observations from a re-analysis of the deposited data

How the results depend on the processing

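With Crh neurons against other neurons, 106 genes passed. The count was 37 with RLE size factors, 322 with no low-count filter, 185 with no replicate block, 38 with DESeq2, 305 with noradrenergic-like and trigeminal-like cells left out, 65 against other neurons at least as deep as the shallowest Crh cell and 35 with each cell thinned to at most 2000 UMIs. It was 180 without the Crh cell of most Crh UMIs and 552 with Crh cells of excitatory-like clusters only, both chosen after seeing the data. Within excitatory-like clusters 514 genes passed, against 243 with no replicate block, 80 with DESeq2, 41 thinned and 270 without the Crh cell of most UMIs. Fewer cells or genes entered several of these fits (3946 genes could be tested after thinning, against 11699); the cause of the other differences was not tested.

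Among the genes reported, directions turned only where no call stood, apart from Adra1a in the first comparison, which was -0.12 after thinning. Slc32a1 was 0.067 against deep neurons and Crhr1 was -0.67 in excitatory-like neurons after thinning and 0.0027 in inhibitory-like neurons at resolution 2.0. All 20 of the largest changes kept their sign wherever they had a value. Their sign was largely fixed beforehand. They were named for the same sign in both libraries, and the 10 falls had no UMI in Crh neurons. Of the 20, 8 still passed with RLE size factors, 6 with DESeq2 and 13 against deep neurons, and after thinning 5 had a value and 2 passed. Of the 10 named for excitatory-like clusters, 1 had a value after thinning and did not pass, and 1 had a value and passed with DESeq2.

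Calls on the 5 genes were lost mostly under DESeq2: Crhbp in neurons (3.12), Crh (3.38) and Crhbp (1.60) in excitatory-like neurons, Crh (-6.45) and Crhbp (-4.93) in trigeminal-like neurons and Crhbp in noradrenergic-like neurons (-3.24). Crhbp in excitatory-like neurons was also lost with no replicate block (1.62). In each library alone, with no test, the log2 difference ranged from 3.87 to 4.85 for Crh and 2.08 to 2.09 for Crhr1 in neurons, 3.28 to 3.41 for Crhr1 in granule-like neurons, 1.64 to 4.46 for Crh and 0.98 to 1.81 for Crhbp in excitatory-like neurons, -4.91 to -4.67, -4.86 to -3.44 and -3.78 to -2.95 for Crh, Crhr1 and Crhbp in trigeminal-like neurons, and -2.87 to -2.75 and -3.06 to -1.76 for Crhr1 and Crhbp in noradrenergic-like neurons.

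Mean Crh in excitatory-like neurons was 42.9 CPM, against 57.0 CPM at resolution 2.0, 38.5 CPM with no doublets removed and 16.9 CPM as a mean over cells; over all neurons the mean per cell was 10.3 CPM for Crh and 36.8 CPM for Crhr1. Thinned to 2000 UMIs, 1.73% of neurons of library 2 had a Crh UMI, and 6.06% and 4.18% of neurons of libraries 1 and 2 had a Crhr1 UMI; 9.60% and 1.15% had 2 or more unthinned. Depth limits the small classes most: 22 of 36 granule-like cells of library 2 had under 1000 UMIs.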
